A study of Mus musculus with 23 samples.

Results

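The genes described here are 31 mouse genes for the synthesis of sterols and fatty acids: 7 enzymes of the mevalonate steps, 12 enzymes of the squalene and sterol steps, 1 sterol carrier, 5 regulators of the SREBP transcription factors, and 6 fatty acid enzymes. They were looked up by gene symbol, and all 31 were found among the 47729 gene rows of the deposited count table. All 31 were also among the 16260 genes that had enough counts to be tested. The study measured RNA of sorted mouse cells around an implanted polyethylene glycol (PEG) hydrogel, a soft synthetic material placed under the skin. All mice were wild-type C57BL/6J animals, and the sources used here give no ages. Macrophages were sorted as Cx3cr1-positive, Ly6C-low cells, and monocytes as Cx3cr1-positive, Ly6C-high cells, in both cases after Liberase digestion of subcutaneous tissue. Each cell type was taken at 2, 14 and 28 days after implantation and from mice with no implant, which are the controls, so that there are 8 groups and 23 libraries. The macrophage controls have 2 libraries and each other group has 3, lettered A to C. The series describes them as biological replicates, and the p-values measure the spread between these libraries.

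Cells make cholesterol from acetyl-CoA through the mevalonate pathway: HMG-CoA is made and reduced to mevalonate, which is phosphorylated and decarboxylated to isoprenoid units, joined to squalene, and closed and trimmed to cholesterol. The transcription factor SREBP-2 drives most of these genes, and SREBP-1 drives fatty acid synthesis. Both are held in the endoplasmic reticulum by SCAP and the INSIG proteins when sterols are plentiful, and are carried by SCAP to the Golgi and released when sterols are low. Macrophages also take in cholesterol from dead cells and lipoproteins, and the oxysterol-sensing LXR receptors then switch on genes that export it.

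Expression is given as CPM, read counts scaled to the library's total with the TMM correction for differences in RNA composition. Each difference is a log2 fold change with its standard error (±) from edgeR's quasi-likelihood test, fitted to all 23 libraries. Its p is adjusted by the Benjamini-Hochberg method over the 16260 genes. A gene is said to have risen or fallen, or to have been called, where that adjusted p was under 0.05. Each of the 73 called differences between groups, and each called difference given for a gene of another lipid list, was also refitted with every library of its groups left out in turn. It was refitted once more with each library's length trend, described in the next paragraph, as a term in the model, an alternative chosen after the data were seen. Where a call was lost, the libraries or the length trend are named beside it with the highest adjusted p reached, and a call with no such remark held in these refits.

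The libraries held 9303153 to 32994092 counts, with a median of 24722229. Ly6c2, which encodes the Ly6C antigen of the sort, ranged from 836 to 3586 CPM in the monocyte libraries and from 5.49 to 236 in the macrophage libraries. The summed level of 10 monocyte markers was 6155 to 19423 CPM in monocytes and 1595 to 5854 in macrophages, while that of 10 macrophage markers overlapped between the cell types. Most of the macrophage sum was Lyz2, with 32899813 counts over all libraries, where the next highest, C1qb, had 1395619. The overlap thus says little about the other macrophage markers. Fat cells and skin gland cells make sterols and fatty acids at high rates. The summed level of 14 adipocyte markers was 5.49 to 41.9 CPM and that of 12 sebocyte and keratinocyte markers 0.894 to 6.91, with Lep, Adrb3, Acvr1c, Krt14, Mc5r and Trp63 at 0 in every library. In such bulk libraries, fewer cells of a type and less RNA per cell cannot be told apart. Libraries also differed in how their values followed gene length. Each gene's log2 level in a library was taken as its deviation from the gene's mean over the 23 libraries. The rank correlation of this deviation with exon length was 0.0386 to 0.245 in the controls and -0.215 to -0.051 at day 2. It was -0.2 to 0.0943 at day 14 and -0.136 to 0.183 at day 28. The sign is relative to the average library. Controls and day 2 thus did not overlap in this trend, nor did monocyte controls and monocyte day 14. Where groups are so separated, the length trend and the implant cannot be told apart. A call lost with that term does not show which of them it came from. Macrophage day 2 B, macrophage day 14 C and monocyte day 28 A stood apart from their own groups in this trend or in mitochondrial reads, by a rule chosen after the data were seen.

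Per kilobase of exon, the highest mean level in monocyte controls was that of Acly, the enzyme that makes cytosolic acetyl-CoA, at 42.2 CPM per kb. It was followed by Lbr at 36.3, a sterol reductase that also anchors the nuclear lamina, Ebp at 30.1, a sterol isomerase, and Mvd at 22.5, which makes the first isoprenoid unit. In macrophage controls the order was Ebp at 28.7 CPM per kb, Acly at 25.5, Lbr at 15.7 and Pmvk, a mevalonate pathway kinase, at 10.7. Scd1, a fatty acid desaturase, was the lowest of the 31 in both, at 0.00181 and 0.0459 CPM per kb. Over the 8 groups, 17 of the 31 genes differed, beside 44.8% of all genes tested.

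**Figure D1:**
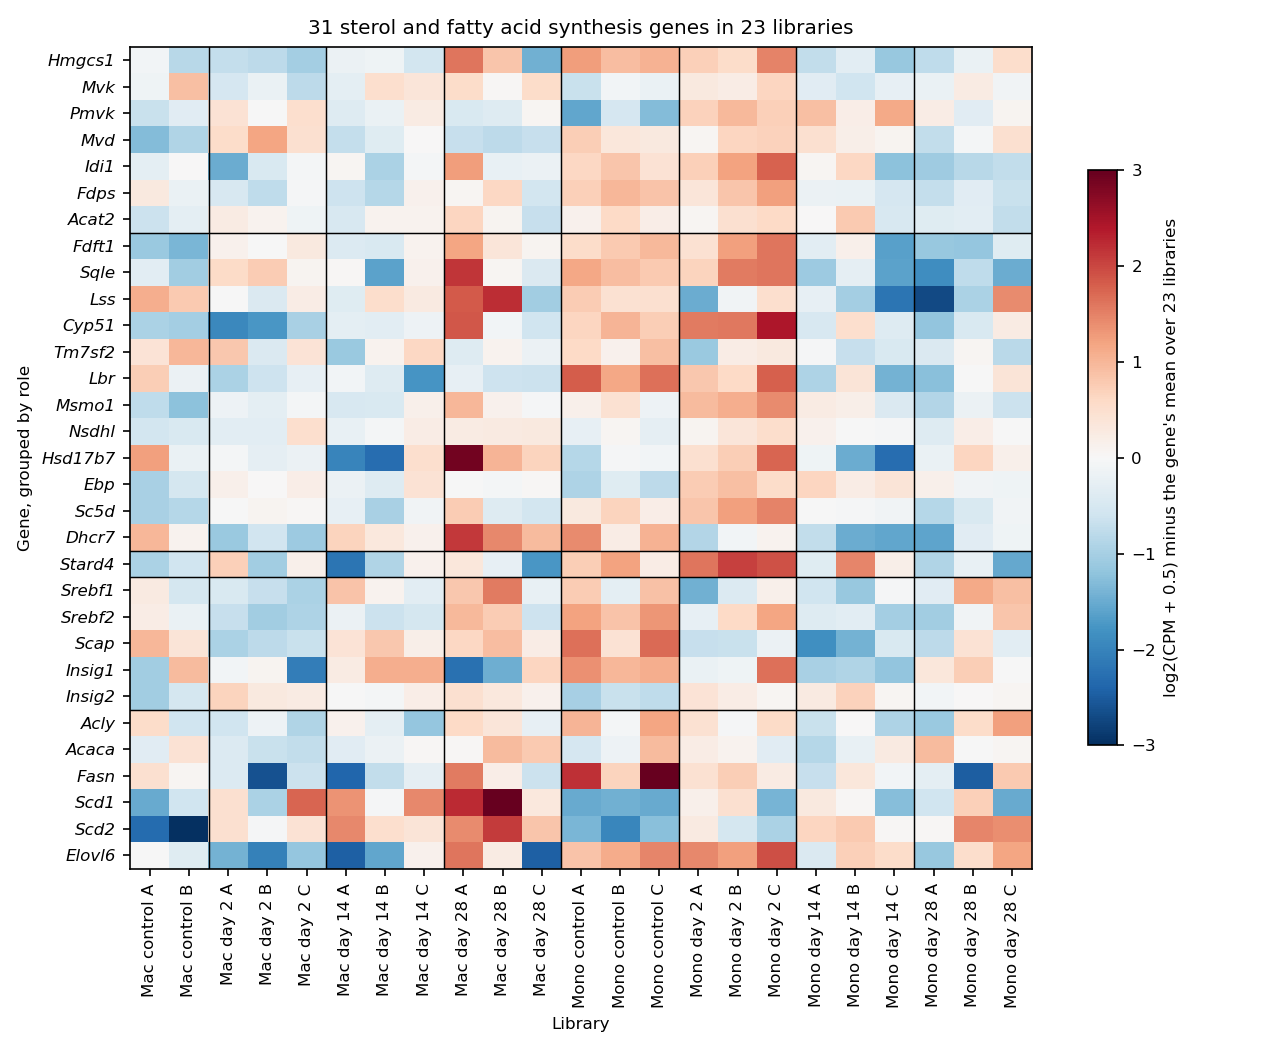
Level of each of the 31 genes (rows, grouped by role) in each of the 23 libraries (columns, grouped by cell type and day), as log2(CPM + 0.5) minus the gene's mean over the libraries, with colours cut at 3 in either direction. Most sterol genes are high (red) in monocyte controls and monocytes at day 2, and macrophage day 28 A is the reddest macrophage library.

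Promoters are shown here for 6 genes whose levels carry the comparisons that follow. Hmgcs1 has the only match to the SREBP site among the 25 genes found in the promoter table. Cyp51, Msmo1 and Sc5d are sterol enzymes with a called difference between the cell types' responses at day 28. Insig2 rose and Scap fell in both cell types at day 2. Each run reads 5′ to 3′ on the gene's strand from 250 bases before to 50 bases after the start site, from RefSeq on build GRCm38.p6. Capitals mark matches to TCACNCCAC (an SREBP site, N being any base), CCAAT (the box bound by NF-Y, which works together with SREBP) or CACGTG (an E-box, which SREBP also binds) on either strand, so that ATTGG is CCAAT on the other strand. The positions are chr13:119690101-119690400 on the plus strand for Hmgcs1, chr5:4104648-4104947 on the minus strand for Cyp51, and chr8:64733529-64733828 on the minus strand for Msmo1. They are chr9:42264251-42264550 on the minus strand for Sc5d, chr1:121332540-121332839 on the minus strand for Insig2, and chr9:110333106-110333405 on the plus strand for Scap.
Hmgcs1: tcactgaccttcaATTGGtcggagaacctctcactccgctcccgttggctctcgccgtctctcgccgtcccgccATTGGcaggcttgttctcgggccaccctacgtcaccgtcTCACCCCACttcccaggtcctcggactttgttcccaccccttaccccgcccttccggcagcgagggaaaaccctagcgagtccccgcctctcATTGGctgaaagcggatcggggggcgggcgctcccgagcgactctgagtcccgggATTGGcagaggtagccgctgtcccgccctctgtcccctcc
Cyp51: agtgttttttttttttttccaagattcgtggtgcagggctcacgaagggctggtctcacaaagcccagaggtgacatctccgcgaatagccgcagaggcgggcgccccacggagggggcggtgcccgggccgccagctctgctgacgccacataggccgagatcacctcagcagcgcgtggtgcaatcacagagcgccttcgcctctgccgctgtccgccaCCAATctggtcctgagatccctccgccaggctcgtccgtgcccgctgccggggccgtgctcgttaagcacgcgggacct
Msmo1: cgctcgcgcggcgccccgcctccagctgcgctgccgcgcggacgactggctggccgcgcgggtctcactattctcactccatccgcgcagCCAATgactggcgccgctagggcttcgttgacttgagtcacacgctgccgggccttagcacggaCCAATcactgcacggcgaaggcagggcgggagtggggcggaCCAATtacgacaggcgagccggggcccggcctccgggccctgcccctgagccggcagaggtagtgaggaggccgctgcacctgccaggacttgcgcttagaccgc
Sc5d: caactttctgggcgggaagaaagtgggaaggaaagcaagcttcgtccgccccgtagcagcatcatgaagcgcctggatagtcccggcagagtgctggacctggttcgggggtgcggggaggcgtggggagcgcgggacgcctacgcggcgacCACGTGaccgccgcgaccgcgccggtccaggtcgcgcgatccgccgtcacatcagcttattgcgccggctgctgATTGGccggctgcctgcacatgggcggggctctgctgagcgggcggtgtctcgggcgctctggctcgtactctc
Insig2: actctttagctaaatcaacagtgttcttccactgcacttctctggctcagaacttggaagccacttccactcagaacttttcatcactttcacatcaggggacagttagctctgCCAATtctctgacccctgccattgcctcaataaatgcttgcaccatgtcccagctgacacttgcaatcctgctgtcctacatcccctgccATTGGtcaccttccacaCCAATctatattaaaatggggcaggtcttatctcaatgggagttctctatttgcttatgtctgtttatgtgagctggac
Scap: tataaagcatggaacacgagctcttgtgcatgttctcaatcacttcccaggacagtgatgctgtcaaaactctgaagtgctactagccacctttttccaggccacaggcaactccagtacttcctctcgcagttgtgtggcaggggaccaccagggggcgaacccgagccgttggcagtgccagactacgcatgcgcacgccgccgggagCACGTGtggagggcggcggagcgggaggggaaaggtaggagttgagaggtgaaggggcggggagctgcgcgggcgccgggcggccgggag
The SREBP site in Hmgcs1 starts 137 bases before the start site, with 3 NF-Y boxes upstream of the start site and 1 after it. In the printed runs Msmo1 and Insig2 each have 3 NF-Y boxes, Cyp51 has 1, Sc5d has 1 and an E-box, and Scap has an E-box and no NF-Y box. The table lists 2 more promoters for Insig2, neither with a match to any of the 3 motifs, and 1 more for Scap, which overlaps the printed one and holds the same E-box. A gene with several promoters was counted as having a motif where any of them did. The NF-Y box was found in 21 of the 25 genes with a promoter (84.0%), against 42.5% of 11047 tested genes and 41.1% of all 27025 genes in the table. The E-box was found in 5 of 25, against 11.3% of tested genes and 8.09% of all genes in the table. The SREBP site was found in 1 of 25 (4.0%), against 1.38% and 1.44%. These are matches of letters only, and no protein binding was measured.

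Monocytes around the implant had more Pmvk, Ebp, Insig2 and Scd1 RNA than control monocytes at each day. From day 14 they had less RNA of several sterol enzymes and SREBP regulators. Scd1 had 1 count in all monocyte controls, and each of its calls was lost without monocyte control A or C. At day 2, 5 of the 31 genes rose, where 15.5% of all genes did, and 1 fell, where 11.5% did. At day 14, 5 rose and 9 fell, beside 19.8% and 17.9% of all genes. The share that rose was thus close to that of all genes at day 2 and not above it at day 14. At day 28, 5 rose and 6 fell, beside 11.7% and 6.52%. The median log2 fold change of the 31 genes was 0.37 at day 2, -0.90 at day 14 and -0.81 at day 28, while the median of all genes tested was 0, -0.03 and 0. The 3 comparisons share the same control libraries. With the length trend in the model the 14 calls at day 14 became 4, of which 3 were higher and 1, Scap, was lower. That trend was 0.0386 to 0.245 in monocyte controls and -0.164 to -0.0467 at day 14. It cannot be told apart from the implant in this comparison. At day 28 the calls numbered 3 without monocyte control A, 4 without control C and 5 without day 28 A. Markers of other cell types moved in the same comparisons. Of 12 fibroblast markers 9 rose at each of the 3 days and 1 fell at day 2, and their summed level was 79.3 to 138 CPM in monocyte controls, 86.7 to 179.7 at day 2, 684 to 1288 at day 14 and 325 to 789 at day 28. Of 14 neutrophil markers 9 fell and 1 rose at day 14 and at day 28, while 4 rose and 5 fell at day 2. Their sum was 2806 to 4349 CPM in the controls, 2390.1 to 5477 at day 2, 319 to 888 at day 14 and 362 to 603 at day 28. Of the 10 macrophage markers 7 rose at day 2, 6 at day 14 and 6 at day 28, and 1 fell each time (medians 1.93, 2.4 and 1.88). Col1a1, Lum, Pdgfra and Dpt were at 0 in the monocyte controls and Camp at day 14, and no marker of these lists was at 0 in all 23 libraries. The part of these markers in the counts was not tested.

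Between day 2 and day 28, 5 sterol genes fell in monocytes, all of the squalene and sterol steps, where 0.480% of all genes fell. The count was 3 without monocyte day 2 A and 1 without day 2 B, day 2 C, day 28 A or day 28 B, each left out in turn. Between day 2 and day 14, edgeR called none of the 31, or 2 without day 14 B (0.726% of all genes in either direction). At an unadjusted p under 0.05, 13 were lower, while DESeq2 called 7 and limma-voom 6. The values of 15 of the 31 genes lay wholly below their day 2 range at day 14, where 8.73% of all genes did, and 14 did at day 28, where 10.4% did.

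In macrophages Scd2 rose at each day, Mvd, Fdft1, Ebp and Insig2 rose at day 2 while Dhcr7 and Scap fell, and Fdft1, Msmo1 and Insig2 rose at day 28. At day 2, 5 of the 31 rose and 2 fell, beside 10.1% and 7.10% of all genes, with a median of -0.56 against -0.17 for all genes. The day 2 calls numbered 1 in all without macrophage control A, 3 without day 2 A or day 2 C, and 4 with the length trend in the model. At day 14 the test called 1 gene, Scd2, which rose (5.51% of all genes rose), and it called 2 without day 14 B or day 14 C. At day 28, 4 rose, beside 6.57% of all genes, with a median of 0.73 against -0.04 for all genes. That count was 2 without control A, control B or day 28 A, and 9 without day 28 C. The 3 comparisons share the 2 control libraries. The summed level of the 14 neutrophil markers was 3446 to 7135 CPM in macrophages at day 2, against 195 to 214 in the controls, and 9 of them rose. That of the 12 fibroblast markers was 17.6 to 62.4 CPM against 214 to 269, and 6 of them fell. Of the 10 monocyte markers 5 rose and 1 fell at day 2, and of the 10 macrophage markers 2 rose and 4 fell (medians 1.05 and -1.14). The summed level of 20 cell cycle genes was 151 to 205 CPM against 436 to 569. Ly6g and Elane were at 0 in both macrophage controls. At day 28, 4 neutrophil markers rose, 2 monocyte markers rose and 4 fell, and no fibroblast marker passed. The part of these in the counts was not tested.

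From day 2 to day 28 in macrophages, 2 of the 31 genes rose and 1 fell, beside 2.28% and 1.97% of all genes. The 3 calls became 1 without macrophage day 2 B, 7 without day 28 C and 0 with the length trend in the model. Between day 2 and day 14, edgeR called none of the 31 (0.474% of all genes in either direction). At an unadjusted p under 0.05, 3 were higher and 1 lower, while DESeq2 called 1 and limma-voom 2.

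Set side by side, macrophages had less Mvd, Fdft1, Cyp51, Msmo1 and Sc5d RNA than monocytes in mice without an implant, and less Hmgcs1, Cyp51, Msmo1 and Sc5d RNA at day 2. Dhcr7 was higher in macrophages at days 14 and 28, Scap at day 14 and Sqle at day 28. In the controls, 5 of the 31 genes were lower in macrophages, where 4.90% of all genes were. At day 2, 4 were lower, where 1.78% were. The ranges did not overlap, with macrophages below, for 18 of the 31 genes in the controls (19.1% of all genes) and 18 at day 2 (13.8%). At day 14 and at day 28, 2 genes were higher in macrophages, where 5.34% and 1.49% of all genes were. The counts depended on single libraries. The count in the controls was 1 without macrophage control A or B, 2 without monocyte control B and 3 without monocyte control A. Without macrophage control A none of the 5 genes named for the controls remained, and the 1 called was another gene. Without macrophage control B, Mvd remained. At day 2 it was 1 without macrophage day 2 A, macrophage day 2 B or monocyte day 2 C, and 2 without macrophage day 2 C or monocyte day 2 B. At day 14 it was 0 without macrophage day 14 B and 1 without macrophage day 14 A or any 1 of the monocyte libraries. Without monocyte day 14 B both Dhcr7 and Scap were lost, and the 1 called was another gene. The count at day 28 was 0 without macrophage day 28 A or monocyte day 28 A, 1 without monocyte day 28 C and 7 without macrophage day 28 C.

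The difference between the cell types' responses to the implant was tested by an interaction term, the log2 fold change against control in macrophages minus that in monocytes. It was positive for 6 of the 31 genes at day 28 (Fdft1, Sqle, Cyp51, Msmo1, Sc5d and Dhcr7), where 2.23% of all genes had a called positive difference. All 6 belong to the squalene and sterol steps, a group in which 12 of 12 differences were positive with a median of 1.48. Over the 31 genes 27 were positive and the median was 1.39, while that of all genes was -0.07. In the same comparison the difference was lower for 8 of the 12 fibroblast markers (median -10.74), where 3.55% of all genes had a called negative difference. It was higher for 7 and lower for 1 of the 14 neutrophil markers (median 7.17), and higher for 2 and lower for 5 of the 10 macrophage markers (median -1.70). In the monocyte controls 2 of the 12 fibroblast markers were above 1 CPM, and Col1a1, Lum, Pdgfra and Dpt were at 0. Ly6g and Elane were at 0 in the macrophage controls. The fibroblast and neutrophil medians thus give a direction, but no reliable size. At day 28 the summed fibroblast level was 325 to 789 CPM in monocytes, against 79.3 to 138 in the controls. In macrophages it was 38.6 to 127, against 214 to 269. The part of these markers in the 6 calls was not tested. At day 14 the test called 2 genes, Fdft1 and Scap (3.25% of all genes), and at day 2 it called 1, Mvd (1.37%). The 6 calls at day 28 became 1 without macrophage control B and 3 without macrophage day 28 A or monocyte day 28 A. Of the 6 genes, Fdft1, Sqle and Msmo1 remained called without macrophage day 28 A, and also without macrophage control A. The 2 calls at day 14 became 0 without macrophage control A or B or monocyte control C, 1 without macrophage day 14 A or B or monocyte control A, and 4 without monocyte control B. The 1 call at day 2, Mvd, was lost without macrophage control A or B, macrophage day 2 B, monocyte control A or monocyte day 2 A. Without macrophage control A, 2 other genes were called in its place. In the other refits that lost Mvd, the count was 0. The 3 interaction terms share their control libraries.

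**Figure D2:**
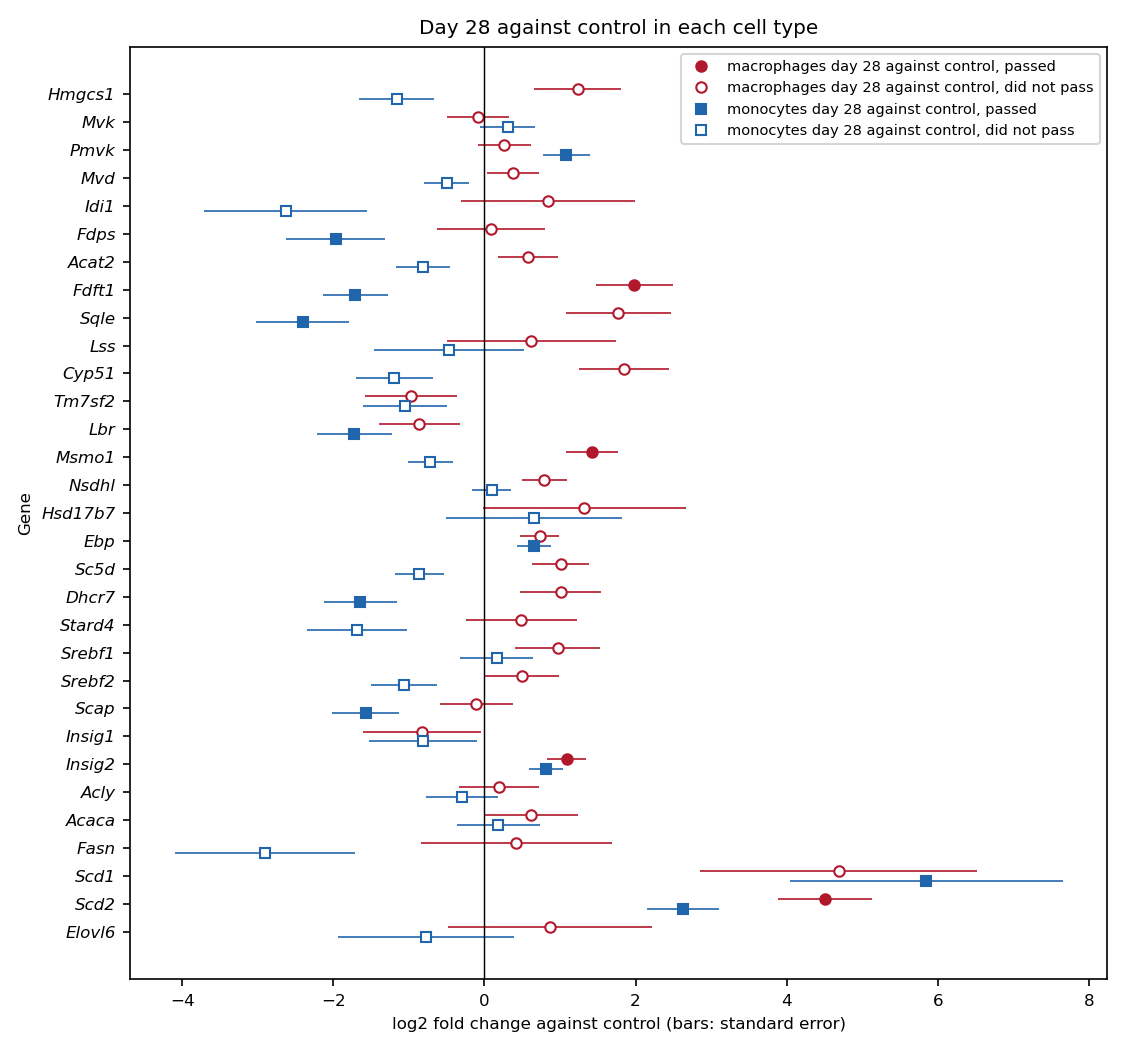
Log2 fold change of day 28 against control for each of the 31 genes in macrophages (red circles) and monocytes (blue squares), with bars of 1 standard error and filled symbols where the adjusted p was under 0.05. Fdft1 and Msmo1 rose in macrophages, while Fdft1, Sqle, Dhcr7, Lbr, Scap and Fdps fell in monocytes.

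Among the mevalonate steps, Hmgcs1, the synthase that makes HMG-CoA, was at 17.3 and 10.2 CPM in the macrophage controls, 11.1, 10.5 and 8.82 at day 2, 16.2, 16.9 and 12.4 at day 14, and 57.3, 33.2 and 6.50 at day 28. It was at 44.9, 35.8 and 38.7 CPM in the monocyte controls, 30.9, 27.3 and 52.4 at day 2, 10.8, 14.7 and 8.17 at day 14, and 10.6, 16.0 and 26.8 at day 28. The macrophage day 28 libraries spread widest, from the highest to the lowest value of that cell type, and every monocyte day 14 library lay below the 3 monocyte controls. Hmgcs1 fell in monocytes at day 14 (-1.82 ± 0.51, adjusted p = 0.0085, lost with the length trend, p up to 0.3). It was lower in macrophages than in monocytes at day 2 (-1.86 ± 0.51, adjusted p = 0.0484, lost without any 1 of its 6 libraries, or with the length trend, p up to 0.18).

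Pmvk, which adds the second phosphate to mevalonate, was at 8.41, 18.2 and 10.2 CPM in the monocyte controls, 42.1, 51.1 and 42.6 at day 2, 48.7, 29.5 and 57.2 at day 14, and 30.4, 20.3 and 27.5 at day 28. Every implant library lay above the 3 monocyte controls. Pmvk rose at day 2 (1.88 ± 0.32, adjusted p = 0.00023), at day 14 (1.88 ± 0.32, adjusted p = 0.00014) and at day 28 (1.09 ± 0.31, adjusted p = 0.019, lost without monocyte control A or C, or monocyte day 28 A or C, p up to 0.085). In macrophages it was at 16.2 and 20.3 CPM in the macrophage controls, 35, 25.6 and 36.8 at day 2, 19.6, 22.4 and 30.8 at day 14, and 18.8, 19.8 and 27.2 at day 28. The day 2 libraries lay above both controls, but no macrophage difference passed the test (0.83 ± 0.35, adjusted p = 0.11 at day 2).

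Mvd, the decarboxylase that makes isopentenyl diphosphate, was at 11.8 and 15.8 CPM in the macrophage controls, 44.3, 68.6 and 41.9 at day 2, 18.2, 23.2 and 30.1 at day 14, and 18.4, 17.3 and 18.2 at day 28. All 3 day 2 libraries lay above every other macrophage library. Mvd rose 3.73-fold at day 2 (1.90 ± 0.36, adjusted p = 0.0011, lost without macrophage control A, p up to 0.058). It was lower at day 28 than at day 2 (-1.52 ± 0.31, adjusted p = 0.0098, lost without macrophage day 2 B, or macrophage day 28 B, or with the length trend, p up to 0.12). It was at 50.2, 38.3 and 36.7 CPM in the monocyte controls, 31.3, 46.8 and 48.5 at day 2, 41.9, 34.0 and 31.9 at day 14, and 17.7, 28.7 and 42.1 at day 28. The monocyte control and implant ranges overlapped at every day. In the controls Mvd was lower in macrophages than in monocytes (-1.59 ± 0.36, adjusted p = 0.0043, lost without macrophage control A, p up to 0.093). Its response at day 2 was larger in macrophages (1.88 ± 0.46, adjusted p = 0.021, lost without macrophage control A or B, macrophage day 2 B, monocyte control A, or monocyte day 2 A, p up to 0.18).

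Fdps, which joins isoprenoid units to farnesyl diphosphate, was low throughout, at 1.63 and 1.02 CPM in the macrophage controls, 0.758, 0.535 and 1.21 at day 2, 0.628, 0.466 and 1.39 at day 14, and 1.32, 2.19 and 0.688 at day 28. It was at 2.38, 2.97 and 2.65 CPM in the monocyte controls, 1.73, 2.61 and 3.58 at day 2, 1.04, 1.02 and 0.721 at day 14, and 0.562, 0.878 and 0.590 at day 28. All 3 monocyte day 28 libraries lay below the 3 controls, and Fdps fell at day 28 (-1.97 ± 0.66, adjusted p = 0.042, lost without any 1 of its 6 libraries, p up to 0.11). By annotation, 9.24% of the 75-base windows of Fdps exons also occur elsewhere in the annotated transcripts. The sources used here do not say how multi-mapping reads were counted. This share was 12.2% for Hmgcs1, 10.7% for Lbr and 10.2% for Scap. It was 47.4% for Acaca, 40.7% for Acat2 and 29.1% for Idi1. The other mevalonate genes, Mvk, Idi1 and Acat2, passed in no comparison.

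The first enzyme of the sterol branch is Fdft1, squalene synthase (chr14:63145150-63179578), which was at 4.25 and 3.48 CPM in the macrophage controls, 10.7, 9.71 and 12.1 at day 2, 7.16, 6.99 and 10.5 at day 14, and 22.8, 12.7 and 10.4 at day 28. All 9 macrophage implant libraries lay above both controls, and day 28 A was the highest. Fdft1 rose in macrophages at day 2 (1.49 ± 0.50, adjusted p = 0.0458, lost without any 1 of its 5 libraries, or with the length trend, p up to 0.24) and at day 28, 3.96-fold (1.99 ± 0.51, adjusted p = 0.015, lost without macrophage control A or B, or macrophage day 28 A, p up to 0.15).

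In monocytes Fdft1 was at 14.4, 17.3 and 19.6 CPM in the monocyte controls, 13.6, 23.6 and 30.4 at day 2, 7.68, 10.8 and 2.79 at day 14, and 4.16, 4.10 and 7.43 at day 28. All day 14 and day 28 libraries lay below the 3 controls. Fdft1 fell at day 14 (-1.27 ± 0.43, adjusted p = 0.026, lost without monocyte control C, or monocyte day 14 C, or with the length trend, p up to 0.16) and 3.27-fold at day 28 (-1.71 ± 0.43, adjusted p = 0.0086). It was lower at day 28 than at day 2 (-2.11 ± 0.44, adjusted p = 0.024, lost without monocyte day 2 B or C, or monocyte day 28 A or B, p up to 0.13). In the controls it was lower in macrophages than in monocytes (-2.15 ± 0.52, adjusted p = 0.0076, lost without macrophage control A or B, p up to 0.1). The responses differed at day 14 (2.36 ± 0.66, adjusted p = 0.033, lost without macrophage control A or B, macrophage day 14 C, or monocyte control C, p up to 0.12) and at day 28 (3.69 ± 0.67, adjusted p = 0.0016). Of the 75-base exon windows of Fdft1, 25.4% also occur in other transcripts.

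Sqle (chr15:59315077-59331192), squalene epoxidase, was at 7.84 and 4.59 CPM in the macrophage controls, 15.1, 17.1 and 10.6 at day 2, 10.2, 2.95 and 10.9 at day 14, and 46.0, 10.4 and 7.19 at day 28. It was at 23.1, 19.4 and 17.6 CPM in the monocyte controls, 16.1, 30.2 and 31.1 at day 2, 4.43, 8.20 and 2.93 at day 14, and 2.36, 5.71 and 3.25 at day 28. Macrophage day 28 A stood far above the other 2 of its group, while all 6 monocyte libraries of days 14 and 28 lay below the 3 monocyte controls. Sqle fell in monocytes at day 14 (-1.95 ± 0.61, adjusted p = 0.016, lost without monocyte day 14 C, or with the length trend, p up to 0.15) and at day 28 (-2.41 ± 0.62, adjusted p = 0.0092). It was lower at day 28 than at day 2 (-2.77 ± 0.63, adjusted p = 0.036, lost without any 1 of its 6 libraries, p up to 0.12). At day 28 it was higher in macrophages than in monocytes (2.48 ± 0.62, adjusted p = 0.036, lost without macrophage day 28 A, or monocyte day 28 A or C, or with the length trend, p up to 0.34). The responses at day 28 differed (4.18 ± 0.94, adjusted p = 0.0091, lost without macrophage control B, p up to 0.092).

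Cyp51, the lanosterol demethylase, was at 9.86 and 9.32 CPM in the macrophage controls, 4.69, 5.43 and 9.66 at day 2, 15.9, 15.6 and 17.4 at day 14, and 72.5, 18.3 and 12.6 at day 28. It was at 30.8, 40.2 and 32.6 CPM in the monocyte controls, 58.4, 59.6 and 108 at day 2, 13.7, 28.0 and 14.8 at day 14, and 8.32, 14.0 and 23.1 at day 28. At day 2 the groups did not overlap, with macrophages at most at 9.66 CPM and monocytes at least at 58.4, while macrophage day 28 A reached the monocyte day 2 range. Cyp51 was lower in macrophages than in monocytes at day 2 (-3.53 ± 0.55, adjusted p = 0.00086) and in the controls (-1.85 ± 0.60, adjusted p = 0.0468, lost without any 1 of its 5 libraries, p up to 0.23). From day 2 to day 28 it rose in macrophages (2.4 ± 0.53, adjusted p = 0.017, lost without macrophage day 2 A or B, or macrophage day 28 A, or with the length trend, p up to 0.35). In monocytes it fell over the same days (-2.32 ± 0.52, adjusted p = 0.036, lost without monocyte day 2 A, B or C, or monocyte day 28 A or B, p up to 0.15). Against control, the responses at day 28 differed (3.04 ± 0.78, adjusted p = 0.023, lost without macrophage control A or B, macrophage day 28 A, or monocyte day 28 A, p up to 0.13), and its printed promoter holds 1 NF-Y box.

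Msmo1, a sterol methyl oxidase, was at 42.8 and 30.9 CPM in the macrophage controls, 65.0, 58.7 and 69.6 at day 2, 51.6, 52.9 and 81.0 at day 14, and 145, 80.0 and 70.6 at day 28. It was at 80.6, 99.9 and 65.4 CPM in the monocyte controls, 141, 154 and 194 at day 2, 85.7, 82.0 and 54.0 at day 14, and 39.2, 64.5 and 46.0 at day 28. All 9 macrophage implant libraries lay above both macrophage controls, and the 3 monocyte day 2 libraries above the 3 monocyte controls. Msmo1 rose in macrophages at day 28 (1.42 ± 0.34, adjusted p = 0.0099, lost without macrophage control B, or macrophage day 28 A, p up to 0.14) and in monocytes at day 2 (0.99 ± 0.30, adjusted p = 0.017, lost without monocyte control A or C, or monocyte day 2 C, or with the length trend, p up to 0.1). In monocytes it was lower at day 28 than at day 2 (-1.71 ± 0.30, adjusted p = 0.0085). It was lower in macrophages than in monocytes in the controls (-1.15 ± 0.34, adjusted p = 0.029, lost without macrophage control A or B, or monocyte control A or B, p up to 0.24) and at day 2 (-1.34 ± 0.30, adjusted p = 0.014, lost without macrophage day 2 A or B, or monocyte day 2 C, p up to 0.073). At day 28 the responses differed (2.14 ± 0.45, adjusted p = 0.0053, lost without macrophage control B, p up to 0.059).

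**Figure D3:**
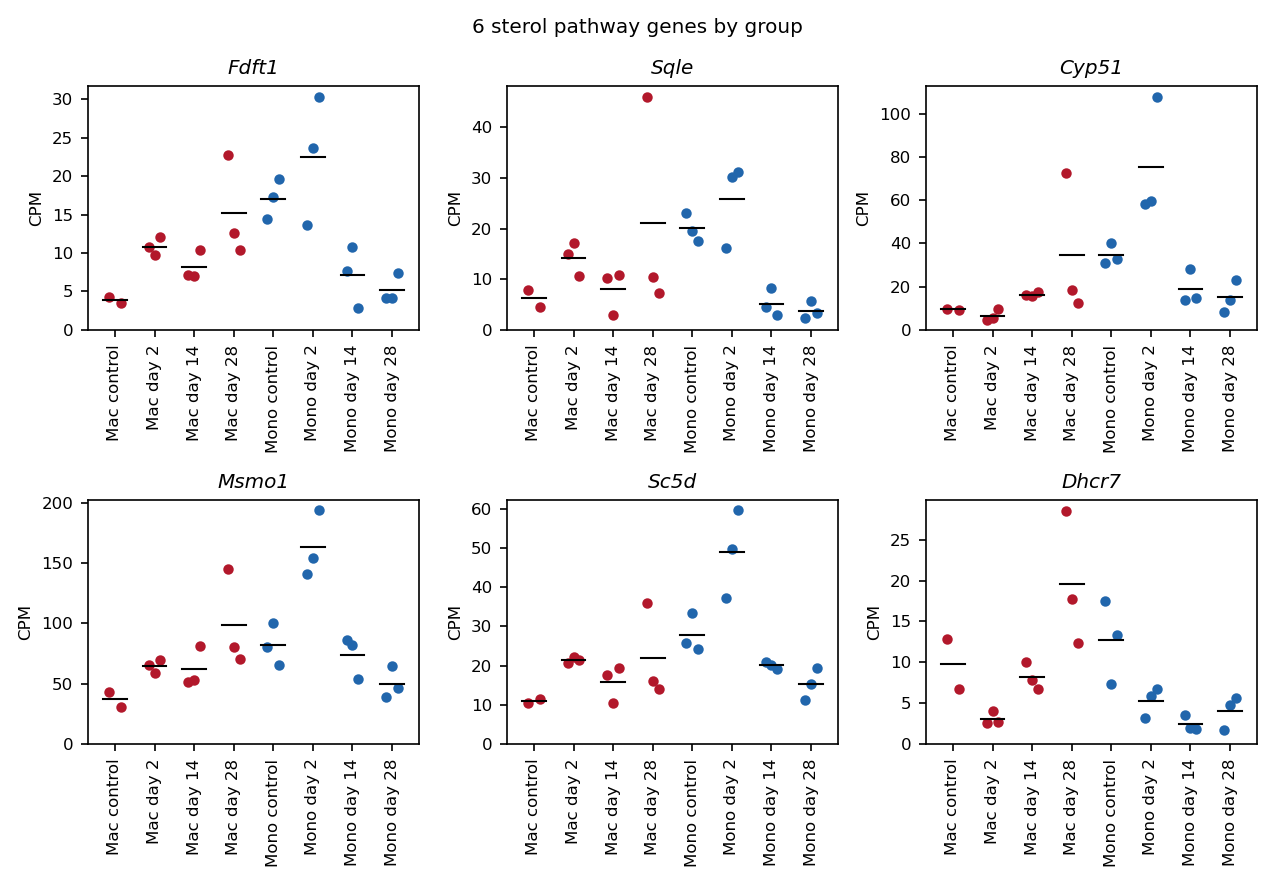
CPM of Fdft1, Sqle, Cyp51, Msmo1, Sc5d and Dhcr7 in every library (points; macrophages red, monocytes blue) with the mean of each group (line), each panel on its own scale from 0. These are the 6 genes with a called difference in response at day 28; in monocytes the Fdft1 and Sqle points of days 14 and 28 sit below the controls, and 1 macrophage day 28 library is the highest of its group in every panel.

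Ebp, which moves the sterol ring double bond, was at 56.2 and 76.6 CPM in the macrophage controls, 123, 112 and 127 at day 2, 98.0, 85.6 and 151 at day 14, and 111, 106 and 114 at day 28. It was at 58.3, 85.7 and 64.8 CPM in the monocyte controls, 188, 208 and 164 at day 2, 174, 129.6 and 145 at day 14, and 123, 104 and 102 at day 28. All 18 implant libraries lay above the controls of their cell type. Ebp rose in macrophages at day 2 (0.86 ± 0.26, adjusted p = 0.027, lost without macrophage control A, or macrophage day 2 A or C, or with the length trend, p up to 0.6). In monocytes it rose at day 2 (1.42 ± 0.23, adjusted p = 0.00014), day 14 (1.11 ± 0.23, adjusted p = 0.0009, lost with the length trend, p up to 0.0523) and day 28 (0.66 ± 0.23, adjusted p = 0.0494, lost without monocyte control A or C, or monocyte day 28 A, B or C, or with the length trend, p up to 0.15).

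Sc5d, a sterol desaturase, was at 10.5 and 11.4 CPM in the macrophage controls, 20.7, 22.2 and 21.4 at day 2, 17.7, 10.4 and 19.5 at day 14, and 36.0, 16.0 and 14.1 at day 28. It was at 25.9, 33.4 and 24.2 CPM in the monocyte controls, 37.4, 49.8 and 59.8 at day 2, 20.8, 20.2 and 19.2 at day 14, and 11.3, 15.2 and 19.5 at day 28. Every monocyte library of days 14 and 28 lay below the controls, but within monocytes Sc5d passed the test from day 2 to day 28 and in no comparison with the controls (-1.68 ± 0.33, adjusted p = 0.02, lost without monocyte day 2 B or C, or monocyte day 28 A or B, p up to 0.081). It was lower in macrophages than in monocytes in the controls (-1.35 ± 0.38, adjusted p = 0.023, lost without macrophage control A or B, or monocyte control B, p up to 0.17) and at day 2 (-1.19 ± 0.33, adjusted p = 0.0498, lost without macrophage day 2 A, B or C, or monocyte day 2 B or C, p up to 0.17). The responses at day 28 differed (1.87 ± 0.50, adjusted p = 0.028, lost without macrophage control A or B, macrophage day 28 A, monocyte control B, or monocyte day 28 A or B, p up to 0.12).

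Dhcr7, the last reductase on the route to cholesterol, was at 12.8 and 6.68 CPM in the macrophage controls, 2.6, 3.99 and 2.66 at day 2, 10.1, 7.76 and 6.77 at day 14, and 28.5, 17.8 and 12.4 at day 28. It was at 17.5, 7.30 and 13.3 CPM in the monocyte controls, 3.15, 5.84 and 6.73 at day 2, 3.53, 1.89 and 1.78 at day 14, and 1.74, 4.78 and 5.66 at day 28. In macrophages the day 2 libraries were the lowest and the day 28 mean was the highest, and in monocytes every implant library lay below all 3 controls. Dhcr7 fell in macrophages at day 2 (-1.65 ± 0.53, adjusted p = 0.036, lost without macrophage control A, or macrophage day 2 A or C, or with the length trend, p up to 0.72). It rose there from day 2 to day 28 (2.65 ± 0.50, adjusted p = 0.0068, lost with the length trend, p up to 0.34). In monocytes it fell at day 14 (-2.41 ± 0.50, adjusted p = 0.00091, lost with the length trend, p up to 0.11) and at day 28 (-1.64 ± 0.48, adjusted p = 0.022, lost without monocyte control A or C, or monocyte day 28 A, or with the length trend, p up to 0.12). It was higher in macrophages than in monocytes at day 14 (1.78 ± 0.49, adjusted p = 0.028, lost without macrophage day 14 A or B, or monocyte day 14 B or C, p up to 0.1) and at day 28 (2.26 ± 0.49, adjusted p = 0.019, lost without macrophage day 28 A, or monocyte day 28 A, p up to 0.12). The responses at day 28 differed (2.65 ± 0.73, adjusted p = 0.033, lost without macrophage control A or B, macrophage day 28 A or B, monocyte control A or C, or monocyte day 28 A, p up to 0.22).

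Lbr had means of 173 ± 38.6 CPM (SD) in monocyte controls, 42.3 ± 28.9 at day 14 and 52.3 ± 26.1 at day 28, with no overlap with the controls on either day. It fell at day 14 (-2.03 ± 0.50, adjusted p = 0.0037, lost with the length trend, p up to 0.34) and at day 28 (-1.72 ± 0.50, adjusted p = 0.02, lost without monocyte control A or C, or monocyte day 28 A, p up to 0.084). Lss, Tm7sf2, Nsdhl and Hsd17b7 passed in no comparison. Nsdhl was 24.8 to 25.9 CPM in macrophages at day 28 against 14.2 to 15.1 in the controls, without overlap (0.79 ± 0.29, adjusted p = 0.092).

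Over the 12 squalene and sterol genes together, the summed level was 452 to 485 CPM in monocyte controls, 585 to 844 at day 2, 285 to 380.4 at day 14 and 235 to 316 at day 28. It was 224 to 273 CPM in macrophage controls, 289 to 342 at day 2, 255 to 350.3 at day 14, and 567, 349 and 312 in the day 28 libraries A, B and C. Library A of macrophages at day 28 thus stood above the rest of that cell type in this sum.

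The sterol carrier Stard4, which moves cholesterol between membranes, was at 3.46 and 4.62 CPM in the macrophage controls, 12.1, 3.25 and 8.09 at day 2, 1.17, 3.61 and 7.85 at day 14, and 9.27, 6.04 and 1.79 at day 28. It was at 12.4, 17.2 and 8.52 CPM in the monocyte controls, 23, 31.5 and 28.3 at day 2, 5.47, 20.7 and 8.13 at day 14, and 3.60, 6.05 and 2.16 at day 28. The 3 monocyte day 2 libraries were the highest of all 23. Stard4 differed over the 8 groups (adjusted p = 0.0074), but no single comparison passed (-2.81 ± 0.69, adjusted p = 0.06 for monocytes at day 28 against day 2).

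Among the regulators, Scap, the escort that carries the SREBPs to the Golgi, was at 14.9 and 9.5 CPM in the macrophage controls, 3.50, 3.95 and 4.35 at day 2, 9.79, 12.9 and 8.12 at day 14, and 11.3, 14.2 and 8.43 at day 28. It was at 23.5, 9.90 and 24.6 CPM in the monocyte controls, 4.25, 4.34 and 6.26 at day 2, 1.66, 2.37 and 5.14 at day 14, and 3.99, 9.80 and 5.70 at day 28. Every monocyte implant library lay below every monocyte control, of which control B was the lowest. Scap fell in monocytes at day 2 (-1.96 ± 0.45, adjusted p = 0.0034, lost with the length trend, p up to 0.22), at day 14, 6.28-fold (-2.65 ± 0.47, adjusted p = 0.0002), and at day 28 (-1.57 ± 0.45, adjusted p = 0.018, lost without monocyte control A or C, or monocyte day 28 A or C, or with the length trend, p up to 0.084). In macrophages it fell at day 2 (-1.63 ± 0.49, adjusted p = 0.026, lost without macrophage control A, or macrophage day 2 A, B or C, or with the length trend, p up to 0.61). At day 14 it was higher in macrophages than in monocytes (1.74 ± 0.45, adjusted p = 0.022, lost without macrophage day 14 B, or monocyte day 14 A or B, p up to 0.082). The responses differed at day 14 (2.4 ± 0.68, adjusted p = 0.034, lost without macrophage control A or B, macrophage day 14 A or B, monocyte control A or C, or monocyte day 14 A or B, or with the length trend, p up to 0.13).

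Insig2, which retains SCAP in the endoplasmic reticulum, was at 22.8 and 32.7 CPM in the macrophage controls, 75.9, 57.7 and 56.0 at day 2, 47.3, 45.5 and 54.2 at day 14, and 66.5, 58.8 and 51.9 at day 28. It was at 23.6, 29.8 and 27.6 CPM in the monocyte controls, 63.5, 55.1 and 49.1 at day 2, 56.8, 76.9 and 49.4 at day 14, and 45.0, 47.9 and 49.6 at day 28. All 18 implant libraries lay above all 5 controls. Insig2 rose in macrophages at day 2 (1.19 ± 0.26, adjusted p = 0.0036, lost without macrophage control A, p up to 0.15) and day 28 (1.09 ± 0.26, adjusted p = 0.0086, lost without macrophage control A, p up to 0.16). At day 14 it narrowly missed the threshold (0.82 ± 0.26, adjusted p = 0.0522). In monocytes it rose at day 2 (1.05 ± 0.23, adjusted p = 0.0019), day 14 (1.18 ± 0.23, adjusted p = 0.00044) and day 28 (0.81 ± 0.22, adjusted p = 0.014, lost without monocyte control A, p up to 0.071). Its paralog Insig1 had means of 17.9 ± 2.6 CPM (SD) in monocyte controls and 3.56 ± 0.390 at day 14, without overlap, and fell (-2.33 ± 0.75, adjusted p = 0.019, lost without monocyte day 14 C, or with the length trend, p up to 0.06).

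Srebf2, the gene of SREBP-2, was at 39.0 and 28.6 CPM in the macrophage controls, 20.3, 15.7 and 17.2 at day 2, 29.1, 20.9 and 22.7 at day 14, and 65.9, 56.2 and 21.3 at day 28. It was at 77.4, 59.8 and 83.7 CPM in the monocyte controls, 27.8, 50.6 and 75.9 at day 2, 25.3, 26.4 and 16.2 at day 14, and 15.8, 30.8 and 59.1 at day 28. All 3 monocyte day 14 libraries lay below the controls, while day 28 libraries ran from 15.8 to 59.1 CPM. Srebf2 fell in monocytes at day 14 (-1.70 ± 0.44, adjusted p = 0.0052, lost with the length trend, p up to 0.24). Srebf1, the gene of SREBP-1, was at 53.6 and 30.8 CPM in the macrophage controls, 32.3, 27.5 and 23 at day 2, 81.3, 47.8 and 35.3 at day 14, and 78.5, 131 and 38.1 at day 28. It was at 75.5, 35.9 and 81.9 CPM in the monocyte controls, 16.0, 33.4 and 49.5 at day 2, 29.4, 19.8 and 43.6 at day 14, and 35.1, 97.9 and 83.4 at day 28. Within groups it varied as much as between them, and no comparison passed.

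Of the fatty acid genes, Scd2, a desaturase that makes monounsaturated fatty acids (chr19:44293674-44306864), was at 12.6 and 4.05 CPM in the macrophage controls, 90.1, 62.4 and 87.1 at day 2, 174, 90.4 and 83.8 at day 14, and 173, 274 and 114 at day 28. The lowest macrophage implant library lay far above both controls. Scd2 rose 9.68-fold at day 2 (3.27 ± 0.58, adjusted p = 0.00066), 14.1-fold at day 14 (3.82 ± 0.60, adjusted p = 0.00027) and 22.7-fold at day 28 (4.50 ± 0.62, adjusted p = 6.4e-05).

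In monocytes Scd2 was at 24.3, 16.0 and 26.6 CPM in the monocyte controls, 77.4, 44.0 and 32.7 at day 2, 99.5, 111 and 65.7 at day 14, and 65.4, 177 and 169.9 at day 28. All implant libraries lay above the 3 controls. At day 2 it did not pass (1.20 ± 0.46, adjusted p = 0.056), while it rose 4.12-fold at day 14 (2.04 ± 0.47, adjusted p = 0.002) and 6.17-fold at day 28 (2.62 ± 0.48, adjusted p = 0.00048). The difference in response between cell types did not pass on any day (2.07 ± 0.70, adjusted p = 0.12 at day 2, 1.77 ± 0.69, adjusted p = 0.12 at day 14 and 1.88 ± 0.69, adjusted p = 0.13 at day 28).

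Scd1, the desaturase typical of liver and fat, was at 0 and 0.450 CPM in the macrophage controls, 1.52, 0.247 and 4.35 at day 2, 3.18, 0.893 and 3.41 at day 14, and 6.25, 11.9 and 1.27 at day 28. It was at 0, 0.0265 and 0 CPM in the monocyte controls, 1.10, 1.5 and 0.0478 at day 2, 1.25, 0.971 and 0.0962 at day 14, and 0.450, 1.85 and 0 at day 28. The monocyte controls held 1 count of Scd1 in all, against 42 at day 2, 38 at day 14 and 46 at day 28, and the day 28 range overlapped that of the controls. The ratio of depth-scaled counts to control was 102.3 at day 2 (95% interval 17.39 to 4136), 88.87 at day 14 (15.01 to 3601) and 98.69 at day 28 (16.85 to 3982), where the intervals cover counting error only. Scd1 was called as higher at day 2 (adjusted p = 0.018, lost without monocyte control A, control C or day 2 B), at day 14 (adjusted p = 0.016, lost without control A or C) and at day 28 (adjusted p = 0.029, lost without control A, control C or day 28 B). The highest adjusted p in these refits was 0.077, 0.064 and 0.15. With the length trend the calls at days 2 and 14 were lost (adjusted p = 0.11 and 0.083). Few windows are shared with other transcripts, 2.77% for Scd1 and 1.39% for Scd2.

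**Figure D4:**
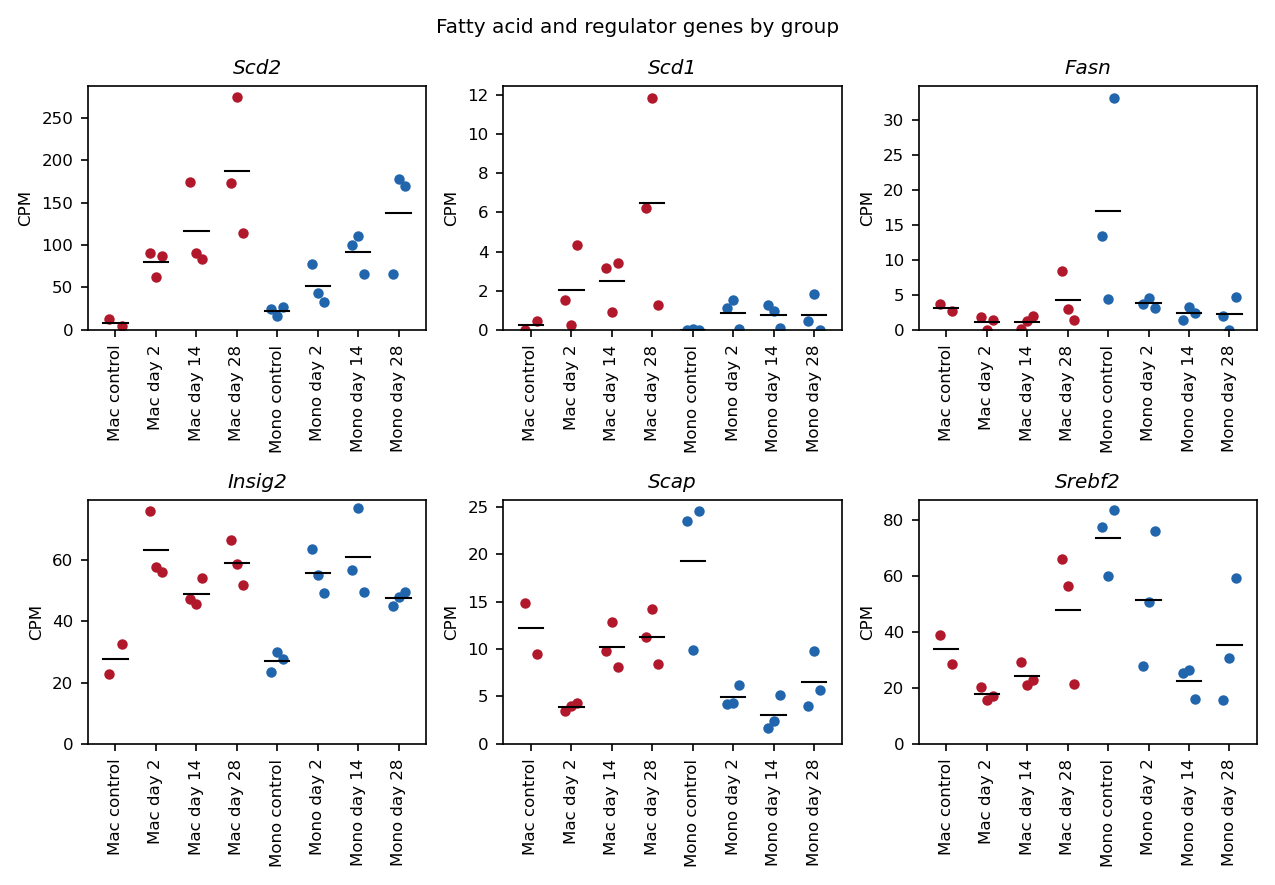
CPM of Scd2, Scd1, Fasn, Insig2, Scap and Srebf2 in every library (points; macrophages red, monocytes blue) with the mean of each group (line), each panel on its own scale from 0. Scd2 and Insig2 sit above the controls in every implant library of both cell types, and Scap sits below the controls in every monocyte implant library.

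Fasn, fatty acid synthase, was at 3.72 and 2.67 CPM in the macrophage controls, 1.80, 0 and 1.45 at day 2, 0.0837, 1.32 and 2.02 at day 14, and 8.42, 2.97 and 1.45 at day 28. It was at 13.4, 4.35 and 33.3 CPM in the monocyte controls, 3.70, 4.56 and 3.10 at day 2, 1.38, 3.34 and 2.36 at day 14, and 1.97, 0.0488 and 4.77 at day 28. The 3 monocyte controls spread from 4.35 to 33.3 CPM, and no comparison passed (-2.84 ± 1.19, adjusted p = 0.065 for monocytes at day 14). Acly was at 185 and 83.9 CPM in the macrophage controls, 83.2, 114 and 67.5 at day 2, 139, 103 and 56.3 at day 14, and 192, 163 and 107 at day 28. It was at 256, 122 and 289.5 CPM in the monocyte controls, 175, 123 and 189 at day 2, 79.6, 127 and 66.2 at day 14, and 58.6, 186 and 299 at day 28. Acly fell in monocytes at day 14 (-1.29 ± 0.48, adjusted p = 0.04, lost without monocyte control A or C, or monocyte day 14 A or C, or with the length trend, p up to 0.33), with ranges that overlapped. With the length trend its log2 fold change turned to 0.47. Acaca and Elovl6 passed in no comparison.

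Gene length moved with several of these results. In macrophages at day 2, the 5 genes that rose had a median exon length of 3473 bases and the 2 that fell 6630, where the median of the 31 genes is 4866. In monocytes at day 14 the 5 that rose had 3473 and the 9 that fell 5279. Across the 31 genes the rank correlation of exon length with log2 fold change was -0.44 in macrophages at day 2 and -0.47 in monocytes at day 14, and across all tested genes it was -0.23 and -0.20. Genes are not independent replicates, and these are descriptions. With the length trend in the model, the 31 genes had 4 calls in place of 7 in macrophages at day 2 and 4 in place of 14 in monocytes at day 14. In both comparisons the trend did not overlap between implant and control libraries, so it cannot be told apart from the implant. In the interaction at day 28 there were as many calls as before, 6.

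**Figure D5:**
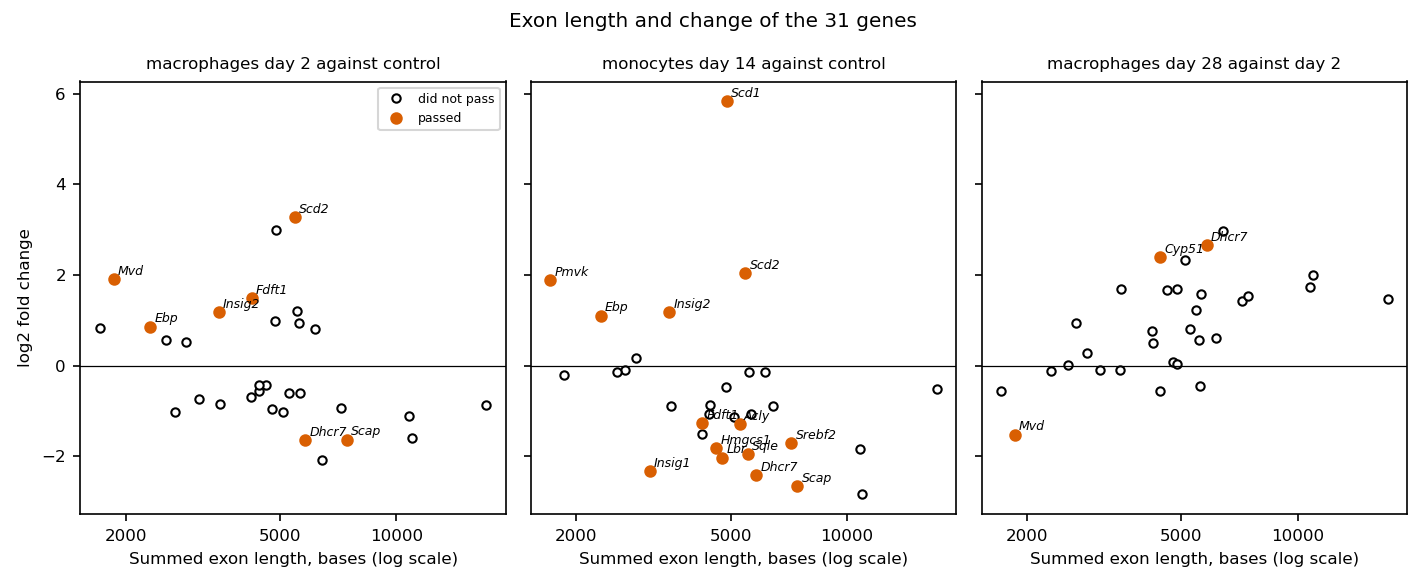
Log2 fold change of the 31 genes against their summed exon length (log axis) in 3 comparisons, with filled points where the adjusted p was under 0.05. In macrophages at day 2 and monocytes at day 14, genes that rose had a shorter median exon length than those that fell. In monocytes the lengths overlapped, with Scd2 (5464 bases) rising and Insig1 (3093 bases) falling. The Scd1 point rests on 1 control count.

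Other genes of lipid metabolism were counted from lists chosen together with the 31 genes, in the same comparisons and so beside the same shares of all genes. Of 13 LXR targets and sensors, 7 rose and 3 fell in monocytes at day 14 (median log2 fold change 1.07), with the same counts at day 28 (median 0.91). Of all genes 19.8% rose and 17.9% fell at day 14, and 11.7% rose and 6.52% fell at day 28. In macrophages 4 rose and 1 fell at day 2 (median 0.19), beside 10.1% and 7.10% of all genes. At day 28, 4 rose (median 0), beside 6.57%. Abca1, a cholesterol exporter, averaged 5.27 ± 1.38 CPM (SD) in monocyte controls and 306 ± 140.2 at day 28 (5.86 ± 0.53, adjusted p = 1.2e-07). Abcg1, another exporter, rose at day 28 in macrophages (1.93 ± 0.32, adjusted p = 0.00037) and in monocytes (1.95 ± 0.27, adjusted p = 2.5e-05). Nr1h3, the gene of LXR-alpha, rose at day 28 in monocytes (2.77 ± 0.37, adjusted p = 1.5e-05) and at day 14 in macrophages (2.09 ± 0.42, adjusted p = 0.0029). Pltp, a lipid transfer protein, fell in macrophages at day 2 (-1.46 ± 0.39, adjusted p = 0.015, lost without macrophage control B, or macrophage day 2 A or C, or with the length trend, p up to 0.13) and rose in monocytes at day 28 (2.48 ± 0.37, adjusted p = 6.6e-05).

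Of 20 genes of sterol uptake, transport and storage, 2 rose and 3 fell in macrophages at day 2, beside 10.1% and 7.10% of all genes. At day 28, 4 rose and 2 fell, beside 6.57% and 3.99% (medians -0.10 and -0.02). In monocytes 4 rose and 4 fell at day 14, close to the 19.8% and 17.9% of all genes. At day 28, 2 rose and 2 fell, beside 11.7% and 6.52% (medians 0.05 and -0.12). Cyp27a1, which makes an oxysterol from cholesterol, was 336 to 351 CPM in macrophage controls and 5.80 to 14.5 at day 2 (-5.22 ± 0.56, adjusted p = 2.6e-06). It was 243 to 353 CPM in monocyte controls and 11.3 to 25.1 at day 14 (-4.17 ± 0.52, adjusted p = 4.4e-06). It thus fell in both cell types without overlap. Lipa, the lysosomal lipase that frees cholesterol, rose in macrophages at day 28 (2.12 ± 0.40, adjusted p = 0.0013), and its response there exceeded that in monocytes (2.46 ± 0.51, adjusted p = 0.0047). Tspo, a mitochondrial membrane protein, rose at day 2 in macrophages (1.62 ± 0.33, adjusted p = 0.002, lost without macrophage control A, or with the length trend, p up to 0.084) and monocytes (2.26 ± 0.29, adjusted p = 1.0e-05). Scarb1, a lipoprotein receptor, fell in monocytes at day 14 (-2.6 ± 0.41, adjusted p = 6.6e-05).

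Of 16 genes of the isoprenoid branch, which uses mevalonate products for protein prenylation and ubiquinone, 2 rose in macrophages at day 28 and 3 fell in monocytes at day 14 (medians -0.01 and -0.16). Of all genes 6.57% rose in macrophages at day 28. In monocytes at day 14, 17.9% of all genes fell, which is close to the share of this list. Zmpste24, a protease of prenylated proteins, rose in macrophages at day 28 (1.71 ± 0.40, adjusted p = 0.0073, lost without macrophage control B, p up to 0.14), and Icmt, a methyltransferase of prenylated proteins, fell in monocytes at day 14 (-2.19 ± 0.43, adjusted p = 0.00053). Fnta, a prenyltransferase subunit, fell there as well (-3.04 ± 0.70, adjusted p = 0.0021). Coq2, of ubiquinone synthesis, fell in macrophages at day 2 (-1.61 ± 0.52, adjusted p = 0.036, lost without macrophage control B, or macrophage day 2 A, B or C, p up to 0.28).

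Of 35 tested genes of other lipid synthesis, 4 rose and 12 fell in monocytes at day 14, beside 19.8% and 17.9% of all genes. In macrophages at day 2, 3 rose and 5 fell, beside 10.1% and 7.10% (medians -0.52 and -0.22). Pcyt2, of phosphatidylethanolamine synthesis, fell at day 2 in macrophages (-1.78 ± 0.33, adjusted p = 0.001) and at day 14 in monocytes (-1.91 ± 0.31, adjusted p = 9.8e-05). Lpin1, a phosphatidate phosphatase, fell in monocytes at day 2 (-3.10 ± 0.54, adjusted p = 0.00033). Hsd17b12, of fatty acid elongation, rose in monocytes at day 2 (1.60 ± 0.24, adjusted p = 7.1e-05). Fads1, a polyunsaturated fatty acid desaturase, fell in macrophages at day 2 (-3.0 ± 0.89, adjusted p = 0.026, lost without any 1 of its 5 libraries, or with the length trend, p up to 0.26) and rose in monocytes at day 28 (4.21 ± 0.90, adjusted p = 0.0023).

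Of 20 genes for the transport, cleavage and turnover of SREBP, SCAP and INSIG, 3 rose and 5 fell in monocytes at day 14. Of all genes 19.8% and 17.9% did. In macrophages at day 28, 2 rose, beside 6.57% (medians -0.50 and 0.64). Sar1a, a GTPase of the vesicles that leave the endoplasmic reticulum, rose at day 2 in macrophages (0.96 ± 0.21, adjusted p = 0.0035, lost without macrophage control A, p up to 0.11) and in monocytes (1.04 ± 0.18, adjusted p = 0.00035). Ubxn8, a protein of endoplasmic reticulum turnover, rose in macrophages at day 28 (1.25 ± 0.38, adjusted p = 0.037, lost without macrophage control A or B, or macrophage day 28 B or C, p up to 0.23). Pgrmc1, a haem-binding membrane protein, rose in monocytes at day 14 (1.04 ± 0.37, adjusted p = 0.033, lost without monocyte control A or C, or monocyte day 14 A or C, or with the length trend, p up to 0.36), as did Nfyb, a subunit of NF-Y (1.17 ± 0.33, adjusted p = 0.0086, lost without monocyte control C, or monocyte day 14 A or B, p up to 0.067).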

How the data were processed

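RNA of sorted macrophages and monocytes was sequenced from 23 libraries (SMART-Seq v4 and Nextera XT kits, single 75-base reads, per the labels' protocols). The deposited values are raw counts of reads per gene, not normalised. Reads were aligned to GRCm38 with STAR 2.4.1d and counted with featureCounts of Subread 1.5.1, per the submitters' processing notes. The sources used here state neither the strand setting nor the handling of multi-mapping reads. The library preparation amplifies RNA before sequencing, so counting intervals cover counting error only.

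Counts of 47729 genes were fitted in R 4.3.3 with edgeR 4.0.16 (TMM scaling, filterByExpr by group, robust quasi-likelihood fit of 8 groups over all 23 libraries), which tested 16260 genes; 20566 rows held no count in any library. A prior count of 0.125 was used for log2 fold changes, and the standard error is the size of the log2 fold change divided by the square root of F. Alternatives were DESeq2 1.42.0, limma-voom (limma 3.58.1), other scaling and filters, fewer groups, left-out libraries, and 3 added after the data were seen (a length trend, and 2 rules for libraries that stand apart). The script was tested on simulated data. Symbols, coordinates and exon lengths are from GENCODE M21.

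The genes and lists were chosen with earlier results of these data known. Values in every library are given for up to 4 genes per role with the smallest p over the 8 groups, and for up to 4 called genes of each other list. Sqle, Fdft1 and Sc5d were added because their difference in response was called, after their values were seen.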

Additional observations from a re-analysis of the deposited data

Results flagged for a closer look

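The difference between the cell types' responses to the implant passed the interaction test of edgeR for 9 gene and day pairs among the 31 genes. Each value is the log2 fold change against control in macrophages minus that in monocytes. At day 2 it was 1.88 for Mvd, which rose in macrophages in 3 of 3 libraries above both controls while monocyte ranges overlapped. At day 14 it was 2.36 for Fdft1, which was above both controls in all macrophage libraries and below all controls in all monocyte libraries. For Scap at day 14 it was 2.4, and only the monocyte libraries lay wholly below their controls. At day 28 it was 3.69 for Fdft1 and 4.18 for Sqle, the enzymes that make and oxidise squalene. It was 3.04 for Cyp51, 2.14 for Msmo1, 1.87 for Sc5d and 2.65 for Dhcr7, enzymes of the later sterol steps. Macrophage day 28 A held the highest value of its group for each of these 6 genes, and without it Fdft1, Sqle and Msmo1 remained called. Of the 6, Cyp51, Sc5d and Dhcr7 lost their calls without macrophage control A. Without macrophage control B all but Fdft1 did. The Mvd call at day 2 and both calls at day 14 were lost without either macrophage control, and also without other single libraries. No group of this study has enough libraries for a test of single outlying values.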

How the results depend on the processing

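The numbers here count how many of the 31 genes were called in a comparison. Over the 8 groups, 17 were called, and the other settings gave 17 to 24. Of the 73 called differences, 68 kept their call with DESeq2's size factors in edgeR, 64 with no filter, 73 with DESeq2, 71 with limma-voom, 58 with the replicate letter as a block and 47 with the length trend. Of 70 that could be refitted on their own groups only, 45 kept it. Against control in macrophages, the 7 calls at day 2 became 4 with no filter, 4 with the replicate block and 4 with the length trend. The 1 call at day 14 became 3 with DESeq2 and 3 with limma-voom, and the 4 at day 28 became 8 with DESeq2 and 1 on those groups only. From day 2 to day 14 the count of 0 became 1 with no filter, 1 with DESeq2 and 2 with limma-voom. From day 2 to day 28 the 3 calls became 11 with no filter, 9 with DESeq2, 8 with limma-voom and 0 with the length trend.

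Against control in monocytes, the 6 calls at day 2 became 14 with limma-voom and 10 on those groups only, the 14 at day 14 became 4 with the length trend, and the 11 at day 28 became 5 on those groups only. From day 2 to day 14 the count of 0 became 10 with no filter, 7 with DESeq2, 6 with limma-voom and 3 with the length trend. From day 2 to day 28 the 5 calls became 9 with no filter, 10 with DESeq2, 8 with limma-voom, 0 on those groups only and 3 with the replicate block. For Acly in monocytes at day 14, the length trend turned the value to 0.47. Between the cell types, the 5 calls in controls became 12 with no filter, 10 with limma-voom and 8 on those groups only. The 4 at day 2 became 2 with DESeq2's size factors, 7 with no filter, 9 with DESeq2, 12 with limma-voom, 8 on those groups only and 2 with the replicate block. The 2 at day 14 became 4 with DESeq2 and 4 with limma-voom, and the 2 at day 28 became 4 with no filter, 4 with DESeq2, 1 with limma-voom, 0 on those groups only, 1 with the replicate block and 1 with the length trend. For the difference in response, the 1 call at day 2 became 2 with no filter, 2 with DESeq2, 4 with limma-voom and 3 with the length trend. The 2 at day 14 became 9 with no filter, 5 with DESeq2, 6 with limma-voom and 0 with the replicate block, and the 6 at day 28 became 3 on those groups only. The cause was not tested for any of these changes. Fits on fewer groups also rest on fewer libraries.

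The rules for libraries that stand apart were chosen after the data were seen. The wider rule left out 5 libraries (a length trend over 0.2 from the nearest of their group, or mitochondrial reads over 1.5 times its next value). It left 1 library in monocytes at day 28. The narrower rule left out 3 libraries, by the same length trend limit or a mitochondrial ratio over 2. It was set after the calls of the wider rule had been seen. By the narrower rule 49 of the 73 calls were kept and by the wider 43. The counts by the narrower and the wider rule were 4 and 3 in monocytes at day 28, 1 and 0 in monocytes from day 2 to day 28, and 1 and 1 between the cell types at day 2. They were 0 and 0 between the cell types at day 28, 1 and 1 for the response at day 14, and 3 and 2 for the response at day 28. In macrophages at day 14 the narrower rule gave 2.

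With 1 library left out in turn, the counts in macrophages were 1 to 6 at day 2, 1 to 2 at day 14, 2 to 9 at day 28, 0 to 0 from day 2 to day 14 and 1 to 7 from day 2 to day 28. In monocytes they were 4 to 7, 10 to 16 and 3 to 10 against control, 0 to 2 from day 2 to day 14 and 1 to 4 from day 2 to day 28. Between the cell types they were 1 to 4 in controls, 1 to 4 at day 2, 0 to 2 at day 14 and 0 to 7 at day 28. For the response they were 0 to 2, 0 to 4 and 1 to 7 at days 2, 14 and 28, and over the 8 groups 17 to 22. A group left with 1 library was assumed to vary like the others. The replicate letters are not described. Same-lettered libraries did not all deviate together (correlation over 0.1) in any of the 21 pairs of groups with 3 letters in common, and did in 1 of the 7 with 2, the controls (0.143 and 0.216). The correlations ran from -0.228 to 0.237, so the block fit is a hint only. Few counts stood behind some values: Scd1 had 1 count in all monocyte controls and 15 in the macrophage controls, Idi1 16 in monocytes at day 28 and 20 in macrophages at day 2, and Elovl6 21 in macrophages at day 2.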
